A study of Mus musculus with 4 samples.

Results

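The Sox genes described here were chosen by name as factors of neural progenitors and of new neurons: Sox1, Sox2, Sox2ot, Sox3, Sox4, Sox5, Sox9, Sox11, Sox12 and Sox21. Of these 10 genes, 4 were analysed (Sox2, Sox2ot, Sox5 and Sox9), out of 16449 genes in the table. The other 6 (Sox1, Sox3, Sox4, Sox11, Sox12 and Sox21) were not analysed here. The name of the group could therefore be followed for Sox2 and Sox9 of progenitors and for Sox5, but not for the SoxC genes (Sox4, Sox11 and Sox12), which are the members of new neurons, and no ratio of SoxC to SoxB1 could be formed.

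The tissue was the dorsal and medial pallium, from which neocortex and hippocampus form, dissected from mouse embryos at E11.5 and measured by long-read (Nanopore) RNA sequencing. The comparison asked which transcripts differ when Tut1, the terminal uridylyltransferase of U6 snRNA, is deleted in neural stem cells. There were 2 libraries of WT embryos and 2 libraries labelled Tut1 knockout, and the embryos per library were not stated. In the study's own listing, both groups carried the floxed allele on both chromosomes (Tut1 f/f), and only the knockout carried Emx1-Cre, which drives recombination in progenitors of the dorsal and medial pallium and in the cells born from them. Cells of other origin in the dissected tissue, such as vessels, blood and microglia, are not targets of this Cre. Whether replicates were separate embryos or litters was not stated, so p-values measure the spread between these libraries.

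Sox proteins bind DNA through a shared domain, the HMG box, and fall into groups by sequence. Sox2, a SoxB1 factor, maintains neural progenitors, and Sox9, a SoxE factor, is needed for neural stem cells to form and persist. Sox5, a SoxD factor, acts in early postmitotic projection neurons of the cortex, while its relative Sox6 is found in pallial progenitors. Sox2ot is a long non-coding RNA gene in whose interior Sox2 lies.

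Depth was low. The libraries held from 305642 to 397150 counts, and the median count of a tested gene was 22. Of 5878 genes tested with edgeR's quasi-likelihood test, 121 (2.06%) had an adjusted p below 0.05, of which 82 (1.40%) were higher and 39 (0.663%) lower in the knockout-labelled libraries. With libraries scaled by total counts alone, 81.4% of calls were higher, against 67.8% here, and DESeq2 called 14 genes, 42.9% of them higher. The gene count of Tut1 was 6 and 11 in WT against 29 and 25 in the knockout-labelled libraries (log2 fold change 1.71 ± 0.40, SE; edgeR adjusted p = 0.0113), so it was higher where the gene should be deleted. A whole-gene count cannot show whether the floxed exon was present, and the genotype was not verified. WT replicate 1 was the sole library with Xist counts (64) and no counts of Y-linked genes, which summed to 41 to 78 in the other 3 libraries.

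A stretch of the HMG box of these genes is shown first, because it bears on whether reads of 1 Sox gene could be counted for another. It spans 90 bases of coding sequence on GRCm38, from chr3:34650551-34650640 (plus strand) for Sox2, chr11:112782906-112782995 (plus strand) for Sox9, chr6:143841181-143841270 (minus strand) for Sox5 and chr7:115489670-115489759 (minus strand) for Sox6. Each is written 5′ to 3′ on the coding strand, and capitals mark the 45 positions that hold the same base in all 4 genes.
Sox2: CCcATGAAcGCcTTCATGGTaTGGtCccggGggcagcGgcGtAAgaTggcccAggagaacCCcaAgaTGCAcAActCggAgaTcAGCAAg
Sox9: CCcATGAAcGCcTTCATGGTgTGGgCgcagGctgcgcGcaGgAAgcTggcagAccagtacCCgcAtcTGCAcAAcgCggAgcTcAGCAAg
Sox5: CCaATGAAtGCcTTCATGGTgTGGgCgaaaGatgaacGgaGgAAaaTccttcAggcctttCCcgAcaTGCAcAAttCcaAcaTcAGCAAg
Sox6: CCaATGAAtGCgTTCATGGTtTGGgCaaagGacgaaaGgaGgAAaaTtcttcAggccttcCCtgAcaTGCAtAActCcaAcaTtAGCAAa

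Sox5 and Sox6, both SoxD genes, were the closest pair, with 85.6% of these bases identical. Sox2 and Sox9 shared 74.4%, and the other pairs shared 60.0% to 66.7%. Even so, the longest run of bases common to any annotated transcripts of 2 of these genes was 23 (Sox5 and Sox6), against 20 for Sox2 and Sox9. The box is thus a short part of transcripts that are several kilobases long in 3 of the 4 genes. How the authors treated reads that map to several genes was not stated.

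Sox2 and Sox2ot lie on the same strand of chromosome 3, so their exons were compared as well. Sox2 (ENSMUSG00000074637) occupies 34650405 to 34652461 as a single exon of 2057 bases. Sox2ot (ENSMUSG00000105265) extends from 34104270 to 34682619, with 18 annotated transcripts of up to 5 exons, and 9 of them span Sox2 in an intron. No base was exonic in both genes, and the longest run of bases their spliced transcripts shared was 12. The nearest Sox2ot exons began 716 bases beyond the end of Sox2 and ended 11765 bases before its start. A spliced Sox2ot read therefore covers no base of Sox2. An unspliced precursor of any of the 9 Sox2ot transcripts that span Sox2 would cover all of it, and such reads were not tested.

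**Figure D1:**
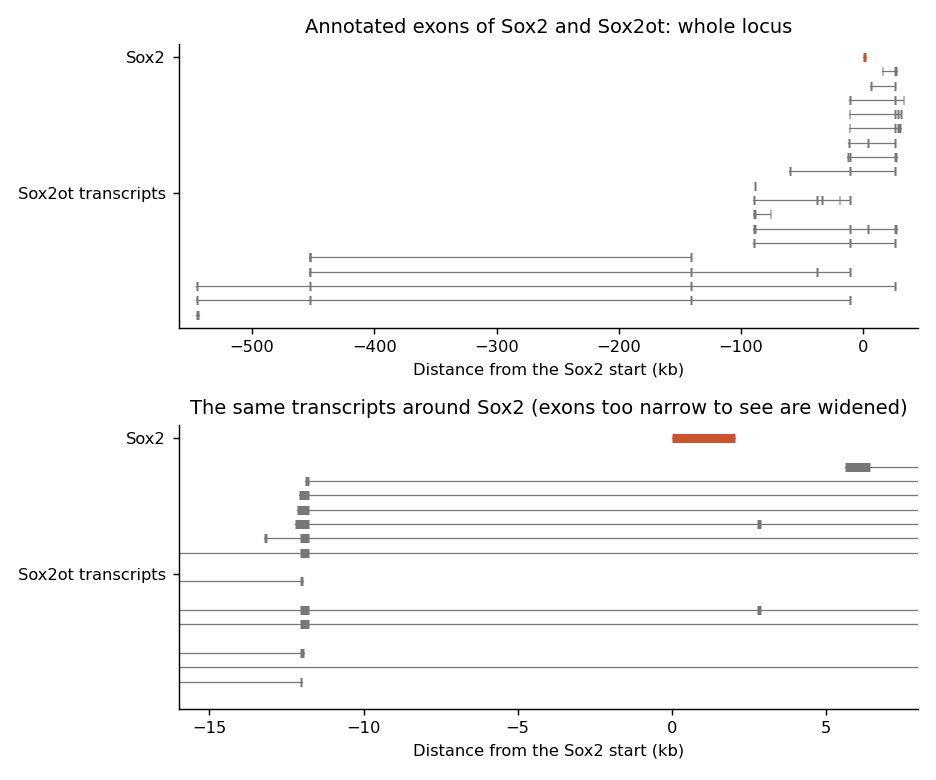
Annotated exons (thick marks) and introns (thin lines) of Sox2 (orange) and of the 18 Sox2ot transcripts (grey), 1 transcript a row, plotted by distance from the start of Sox2 in kilobases. The upper panel shows the whole locus and the lower panel the surroundings of Sox2, where the single Sox2 exon overlaps no Sox2ot exon.

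Of the 4 Sox genes analysed, all were abundant enough to be tested, and 0 had an adjusted p below 0.05, against 2.06% of all tested genes. In edgeR, 0 of them had an unadjusted p below 0.05 either (14.2% of all tested genes had), and 0 were called by limma-voom or by DESeq2, which gave no adjusted p for Sox2 and Sox2ot. Their median log2 fold change was -0.11, beside -0.01 over all tested genes. With so few counts, these comparisons could not exclude moderate changes, and the interval of each difference is given with its gene.

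Sox2, the SoxB1 factor of progenitors, had counts of 13 and 22 in WT replicates 1 and 2 and of 10 and 12 in knockout-labelled replicates 1 and 2. The highest value was in WT replicate 2, and the second knockout-labelled library lay between the WT libraries once depth was taken into account. Scaled to library size by TMM (CPM, counts relative to a fixed library total), these were 39.4 and 61.4 in WT against 26.6 and 41.7 in the knockout-labelled libraries. The means were 50.4 ± 15.6 CPM in WT against 34.1 ± 10.7 CPM in the knockout-labelled libraries (SD, n = 2 each). The log2 fold change was -0.60 ± 0.42 (SE), with a 95% interval from -1.45 to 0.24 (edgeR adjusted p = 0.571). The groups overlapped, and the interval included 0. The value moved to -0.26 without WT replicate 2, to -0.28 without the first knockout-labelled library and to -0.93 without the second. It turned to 0.08 when Sox2ot counts were added to those of Sox2. The 50 tested protein-coding genes with 1 exon, as Sox2 has, gave a median of -0.09.

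Sox2ot, the non-coding RNA, was counted 44 and 55 times in WT against 73 and 42 times in the knockout-labelled libraries. Its highest level was in the first knockout-labelled library and its lowest in WT replicate 1, and the groups overlapped. The levels were 143 ± 14.4 CPM in WT against 169.9 ± 34.0 CPM in the knockout-labelled libraries (SD, n = 2 each). The log2 fold change of 0.26 ± 0.25 (SE) had a 95% interval from -0.24 to 0.76 (edgeR adjusted p = 0.717), and it was 0.02 without the first knockout-labelled library and 0.43 without the second.

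Since Sox2 and Sox2ot were read from the same locus and strand, their counts were also set against each other within each library, where scaling plays no part. This comparison was chosen after it was known which genes had a row. Sox2 made up 22.8% of the summed counts in WT replicate 1 (13 of 57, exact 95% binomial interval 12.7% to 35.8%) and 28.6% in WT replicate 2 (22 of 77, 18.8% to 40.0%). In the knockout-labelled libraries it made up 12.0% (10 of 83, 5.93% to 21.04%) and 22.2% (12 of 54, 12.0% to 35.6%). Sox2ot thus gave the larger number of counts at this locus in each of the 4 libraries, without regard to its length. The shares averaged 25.7% ± 4.08 in WT against 17.1% ± 7.19 in the knockout-labelled libraries (SD, n = 2 each), a difference of -8.55 percentage points. It was -5.67 points without WT replicate 2, -3.47 points without the first knockout-labelled library and -13.6 points without the second. An exact two-sided permutation test gave p = 0.333, which is the smallest value that 2 against 2 libraries allow. The nearest libraries of the 2 groups, at 22.8% and 22.2%, differed by far less than their counting intervals, which cover counting error only.

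Sox9, the SoxE factor of neural stem cells, had counts of 74 and 86 in WT against 77 and 49 in the knockout-labelled libraries, which corresponded to 224 and 240 CPM in WT against 205 and 170 CPM in the knockout-labelled libraries. Both knockout-labelled libraries were below both WT libraries, so the groups did not overlap. Such a lower, non-overlapping pattern was found in 20.8% of all tested genes. The means were 232 ± 11.4 CPM in WT against 187 ± 24.4 CPM in the knockout-labelled libraries (SD, n = 2 each). The log2 fold change was -0.30 ± 0.22 (SE), with a 95% interval from -0.75 to 0.15 and an edgeR adjusted p of 0.599, so Sox9 did not pass the test. It was -0.18 without the second knockout-labelled library. Sox9 (ENSMUSG00000000567) lies on chromosome 11, 112782224 to 112787760, with 3 exons and 1 annotated transcript.

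Sox5, the SoxD factor of early projection neurons, was counted 56 and 69 times in WT against 76 and 51 times in the knockout-labelled libraries. The 4 libraries lay close together at 170, 193, 202 and 177 CPM in the same order, and the groups overlapped. The means were 181 ± 16.3 CPM in WT against 189.6 ± 17.6 CPM in the knockout-labelled libraries (SD, n = 2 each). The log2 fold change was 0.07 ± 0.23 (SE), with a 95% interval from -0.40 to 0.54 (edgeR adjusted p = 0.935). Its sign turned to -0.03 without WT replicate 1 and likewise without the first knockout-labelled library. Sox5 (ENSMUSG00000041540) spans chromosome 6, 143828425 to 144781977, with 14 annotated transcripts. Annotated antisense genes overlap it, and since the use of strand in counting was not stated, their reads could not be told apart from those of Sox5.

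**Figure D2:**
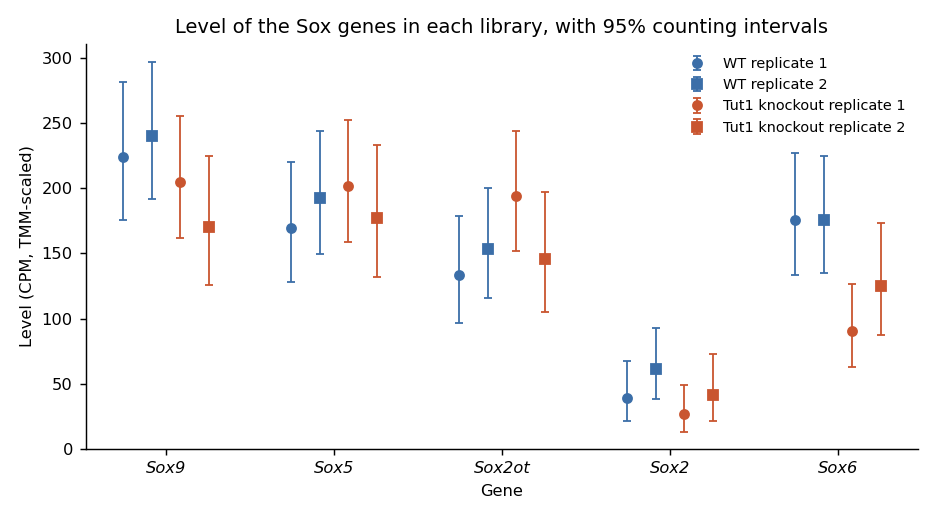
Normalised levels (CPM) of the 4 Sox genes analysed and of Sox6 in each of the 4 libraries, with WT in blue and the knockout-labelled libraries in orange. Bars through the points are exact 95% counting intervals. The groups of Sox2, Sox2ot and Sox5 overlap, while both Sox9 and both Sox6 values of the knockout-labelled libraries lie below both WT values.

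Levels of different genes were compared per kilobase of the longest annotated transcript. On that scale the mean over the 4 libraries was 50.7 CPM per kilobase for Sox9, 44.9 for Sox2ot, 25.6 for Sox5 and 20.5 for Sox2. The neighbours Sox9 (41.2 to 58.1 over libraries) and Sox2ot (38.2 to 55.7) overlapped, as did Sox5 (23.4 to 27.9) and Sox2 (12.9 to 29.9). Sox9 was above Sox2ot in both WT libraries (means 56.1 against 41.2 CPM per kilobase). It was below Sox2ot in both knockout-labelled libraries (49.5 against 55.7 and 41.2 against 41.8), though nearly equal in the second. In CPM, without division by length, Sox9 was above Sox2ot in those libraries too (204.6 against 194.0 and 170.2 against 145.9). Per kilobase, Sox9 and Sox2ot were both above Sox5 and Sox2 in each library, whereas in CPM Sox5 was above Sox2ot in each library. Sox2ot has transcripts far shorter than its longest, so its value per kilobase depends on that choice. Without division by length, mean CPM was 209.8 for Sox9, 185.4 for Sox5, 156.7 for Sox2ot and 42.3 for Sox2. The order of Sox5 and Sox2ot thus depends on that division. The tested genes most like Sox2 across the 4 libraries were Ago1, Pard3b and Prpf19, by the largest difference in centred log2 CPM (0.11, 0.11 and 0.15) among 1248 genes with a mean count of at least 50. With 10 to 22 counts of Sox2 per library, counting error is wider than these differences, so the choice of these 3 genes carries little information.

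Of 10 further Sox genes looked for, 6 had a row, 1 was abundant enough to be tested, and 0 passed the test. The tested gene was Sox6, the SoxD factor of pallial progenitors (ENSMUSG00000051910, chromosome 7, 115470872 to 116038796). Sox6 had counts of 58 and 63 in WT against 34 and 36 in the knockout-labelled libraries. Both knockout-labelled libraries were below the WT libraries, as in 20.8% of all tested genes, and the WT libraries were nearly equal. The means were 176 ± 0.20 CPM in WT against 108 ± 24.5 CPM in the knockout-labelled libraries (SD, n = 2 each). The log2 fold change was -0.73 ± 0.26 (SE), with a 95% interval from -1.25 to -0.20. The edgeR p of 0.0078 did not pass after adjustment over all genes (adjusted p = 0.149). Without the first knockout-labelled library, the log2 fold change of Sox6 was -0.49 and the unadjusted edgeR p was 0.120. Sox13, a further SoxD gene, had 4 and 2 counts in WT against 8 and 2 in the knockout-labelled libraries. Sox17, a factor of vessel endothelium, had 6 and 5 counts in WT against 9 and 6 in the knockout-labelled libraries. Sox7 and Sox8 had 3 and 1 counts in all, and Sox18 had 0 in each of the 4 libraries, which allows up to 3 counts per library (the one-sided 95% limit).

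**Figure D3:**
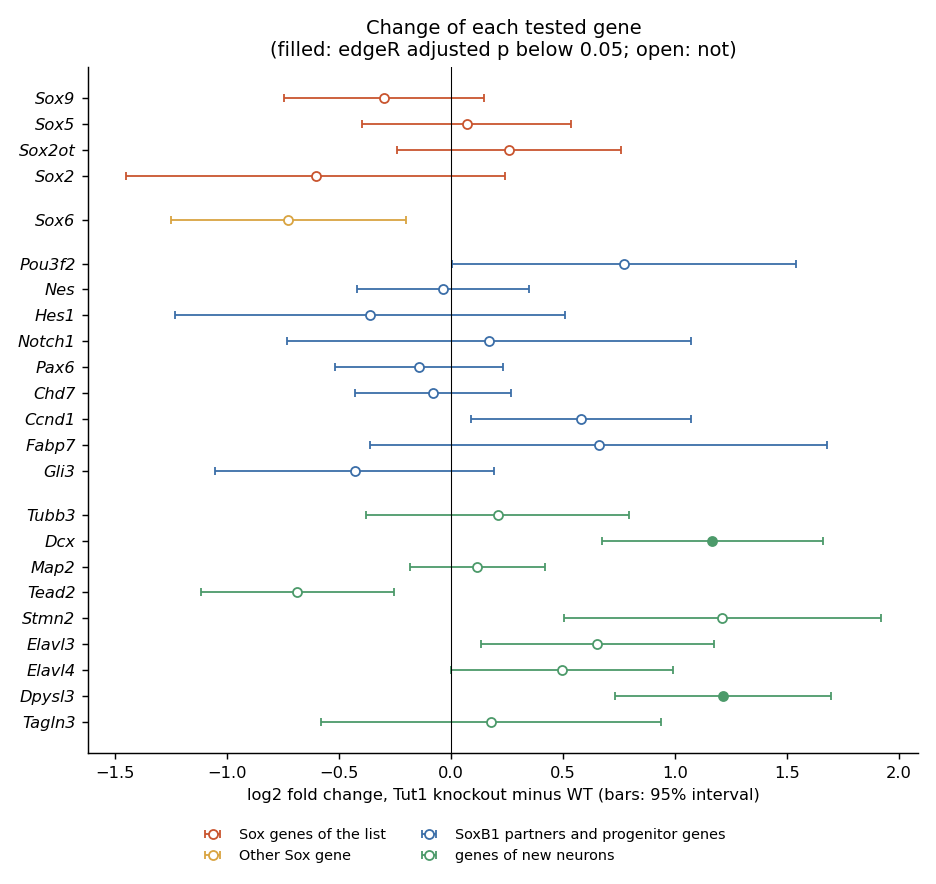
Log2 fold change (knockout-labelled libraries against WT) of the 4 Sox genes analysed and of Sox6, with 95% intervals from the edgeR fit. The tested progenitor genes and genes of new neurons described below are also drawn. Filled points had an edgeR adjusted p below 0.05, and all Sox genes are open points. The intervals of Sox2, Sox2ot, Sox5 and Sox9 include 0, and that of Sox6 does not, although its adjusted p was 0.149.

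The SoxD genes were compared with each other within libraries, a comparison chosen after their values were seen. Sox5 made up 49.1% of the summed Sox5 and Sox6 counts in WT replicate 1 (56 of 114, exact 95% binomial interval 39.6% to 58.7%) and 52.3% in WT replicate 2 (69 of 132, 43.4% to 61.0%). It made up 69.1% (76 of 110, 59.6% to 77.6%) and 58.6% (51 of 87, 47.6% to 69.1%) in the knockout-labelled libraries. Without regard to length, the counts of Sox5 and Sox6 were thus nearly even in WT, and Sox5 gave more of the counts in both knockout-labelled libraries. The means were 50.7% ± 2.23 in WT against 63.9% ± 7.40 in the knockout-labelled libraries (SD, n = 2 each), a difference of 13.2 percentage points. The exact two-sided permutation test gave p = 0.333, again the smallest possible. The share was chosen after Sox6 was seen to separate the groups, so this p adds nothing to the Sox6 values. The difference was 7.92 points without the first knockout-labelled library and 18.4 points without the second.

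**Figure D4:**
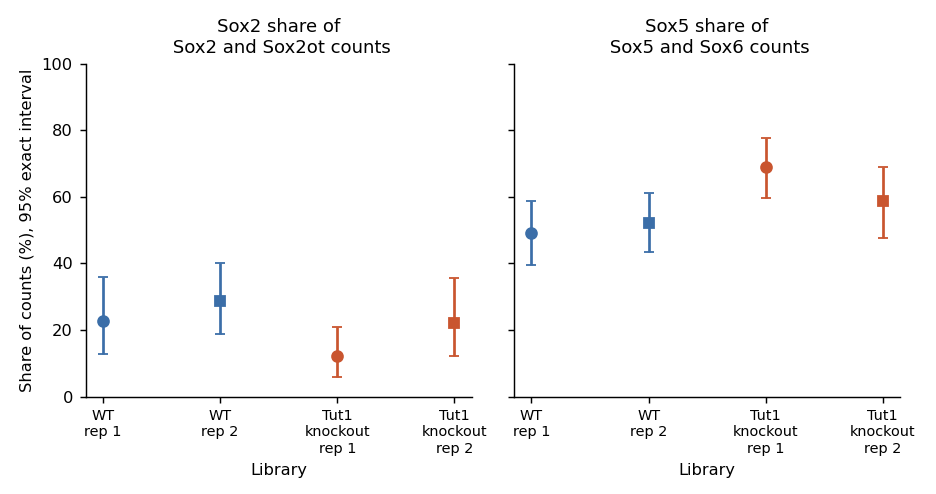
Share of Sox2 in the summed Sox2 and Sox2ot counts (left) and of Sox5 in the summed Sox5 and Sox6 counts (right) in each library, in percent, with exact 95% binomial intervals. The Sox2 share ranges from 12.0% to 28.6% and is lower in both knockout-labelled libraries, and the Sox5 share ranges from 49.1% to 69.1% and is higher in both. Each interval of a WT library overlaps those of both knockout-labelled libraries, except that of WT replicate 1 and the first knockout-labelled library in the Sox5 share.

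Genes that work with SoxB1 factors or mark progenitors were then examined. Of 13 listed, 12 had a row and 9 were tested: 4 had a positive and 5 a negative log2 fold change, and 0 passed the edgeR test, while 2 of the 9 had an unadjusted p below 0.05, as 14.2% of all tested genes had. Other tools were not counted for this list. The median log2 fold change was -0.04 (range -0.43 to 0.77), beside -0.01 over all tested genes. Pax6, the homeobox factor that acts with Sox2 in pallial progenitors, had counts of 137 and 119 in WT against 132 and 93 in the knockout-labelled libraries (log2 fold change -0.14, edgeR adjusted p = 0.816). Chd7, a chromatin remodeller, was counted 146 and 208 times in WT against 169 and 151 times in the knockout-labelled libraries (-0.08, adjusted p = 0.897). The groups of both genes overlapped. Nes, the intermediate filament of neural progenitors, had counts of 103 and 110 in WT against 111 and 89 in the knockout-labelled libraries (-0.04, adjusted p = 0.958), whereas Ccnd1, the G1 cyclin, had counts of 37 and 61 in WT against 79 and 62 in the knockout-labelled libraries (0.58 ± 0.24, SE; adjusted p = 0.241).

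Genes of new neurons, among them targets reported for SoxC factors, were examined as well. They do not measure the SoxC genes, whose levels remain unknown here. Of 14 listed, 13 had a row and 9 were tested, of which 8 had a positive log2 fold change and 2 passed the test, both higher in the knockout-labelled libraries (1.40% of all tested genes were). An unadjusted p below 0.05 was found for 6 of the 9, Tead2 among them with a negative value, against 14.2% of all tested genes. The median was 0.50 (range -0.69 to 1.22), beside -0.01 over all tested genes, and the list was chosen with such rises already known. Dpysl3, a protein of growing axons, rose from counts of 35 and 41 in WT to 100 and 71 (log2 fold change 1.22 ± 0.24, SE; edgeR adjusted p = 0.00237). Dcx, the microtubule protein of migrating neurons, rose from 36 and 36 to 86 and 70 (1.17 ± 0.24, SE; adjusted p = 0.00461). Both knockout-labelled libraries were above both WT libraries for each of these genes, a pattern that 22.1% of all tested genes had. Without the first knockout-labelled library, 3 of all tested genes passed in place of 121, and 35 did without the second. Map2, the dendritic microtubule protein, had counts of 249 and 247 in WT against 318 and 206 in the knockout-labelled libraries (0.12, adjusted p = 0.815). Tead2, a transcription factor of progenitors that is also a reported SoxC target, had counts of 86 and 117 in WT against 65 and 56 in the knockout-labelled libraries (-0.69 ± 0.21, SE; adjusted p = 0.0819).

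The summed levels of cell type markers are given beside these values. The 8 pallial progenitor markers, all detected, summed to 1880 to 2114 CPM in WT against 1233 to 1351 CPM in the knockout-labelled libraries. Most of this difference lay in Lhx2, a homeobox factor of the pallium, which fell from 1054 and 760 CPM to 282 and 368 CPM and was the 1 marker of the list that passed the test (log2 fold change -1.49 ± 0.18, SE; edgeR adjusted p = 6.48e-07). The other 7 summed to 1060.2 and 1120.04 CPM in WT against 951 and 983 CPM. The 5 markers of new neurons summed to 1061 to 1100 CPM in WT against 1497 to 1746 CPM, and 2 of them, Dcx and Mapt, passed the test as higher. Without these 2, the sums were 841 to 891 CPM and 903 to 1087 CPM. The 2 markers of intermediate progenitors summed to 142 to 185 CPM in WT against 231 to 260.5 CPM.

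Among markers of other cells, microglial genes (5 of 5 detected, 2 passing as higher) summed to 51.5 to 72.6 CPM in WT against 170.2 to 213 CPM in the knockout-labelled libraries. The 2 were Csf1r and Tyrobp, and the other 3 summed to 0 and 5.59 CPM in WT against 15.9 and 6.95 CPM. Subpallial markers, of which 5 of 6 had a row and 1 (Dlx1) passed as higher, summed to 0 and 50.3 CPM in WT against 144 and 90.3 CPM. Mesenchymal markers, of which 5 of 7 had a row and 1 (Col1a2) passed as higher, summed to 103 to 251 CPM and to 309 to 457 CPM. Endothelial markers (5 of 6 detected, Sox18 at 0) summed to 57.6 to 69.8 CPM and to 108 to 117 CPM. Red cell markers overlapped between the groups, at 794 and 1103 CPM in WT against 1260 and 861 CPM, with 1 of 4 (Hbb-bh1) passing as lower. The part of these cells in the Sox values was not tested, and in bulk tissue fewer cells of a type and less RNA per cell cannot be told apart.

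**Figure D5:**
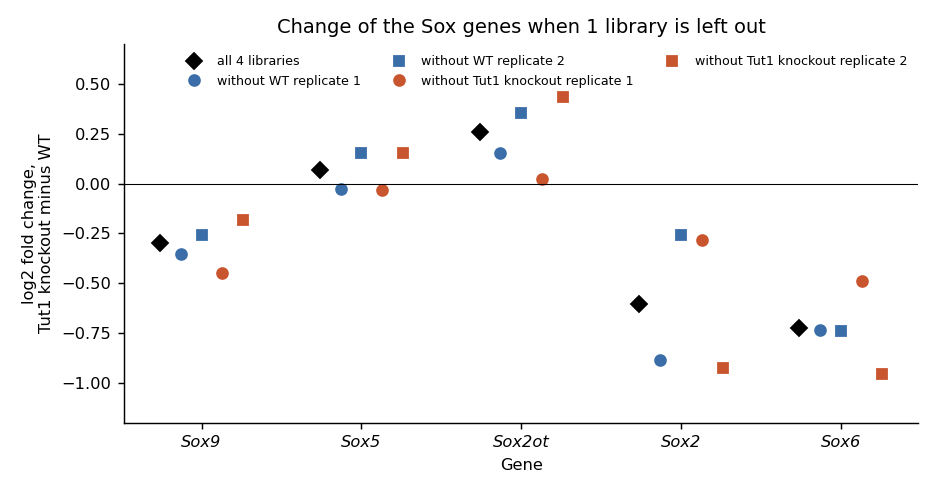
Log2 fold change (knockout-labelled libraries against WT) of the 4 Sox genes analysed and of Sox6 with all 4 libraries and with each library left out in turn. Sox2 ranges from -0.93 to -0.26, Sox2ot from 0.02 to 0.43, Sox9 from -0.45 to -0.18 and Sox6 from -0.96 to -0.49, while Sox5 falls on both sides of 0.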

How the data were processed

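The deposited values were raw read counts per gene, which the authors made from Nanopore reads of poly(A)-enriched RNA mapped to transcripts of Ensembl 102 (GRCm38) by minimap2 2.24 and processed with FLAIR 2.0.0. How isoforms were summed, how multimapping reads were treated and whether strand was used were not stated. Groups came from the sample labels. Symbols, exons and sequence came from GENCODE M21 (GRCm38), which matched 16429 of 16449 identifiers (99.9%), with 1-based coordinates.

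Genotypes were compared in R 4.3.3 by edgeR 4.0.16: filterByExpr (minimum count 10, minimum total 15), TMM scaling, glmQLFit and glmQLFTest, two-sided and without covariates, with Benjamini-Hochberg adjustment over 5878 genes (threshold 0.05). CPM, for all genes, used the totals over the 5878 tested genes (283591 to 365964 counts per library) multiplied by the TMM factors, not the totals over all genes. Intervals on counts are exact at 95% and cover counting error only. Alternatives included DESeq2 1.42.0 and limma-voom (limma 3.58.1). The procedure was tested on simulated counts.

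All listed Sox genes were to be named, with further Sox genes where their total count reached 10, and at most 4 genes per list, those past the threshold first and then the most abundant. Sox7, Sox8 and Sox18 fall outside this rule. Members and lists were chosen with earlier results of these data known. The planned ratio of SoxC to SoxB1 counts was not computed.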

Additional observations from a re-analysis of the deposited data

How the results depend on the processing

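The number of Sox genes passing the test was 0 in each of the 14 settings tried. Of 57 alternative values for the 4 Sox genes, 52 kept direction and side of the threshold, 2 kept direction with no adjusted p (DESeq2, Sox2 and Sox2ot) and 3 turned, since the log2 fold change of Sox2 with Sox2ot counts added was 0.079, and that of Sox5 was -0.03 both without WT replicate 1 and without the first library labelled Tut1 knockout. The cause was not tested. With 1 library left out, Sox5 ranged from -0.035 to 0.156. Adjusted p-values ranged from 0.486 to 0.920 for Sox2, 0.611 to 0.990 for Sox2ot, 0.826 to 0.995 for Sox5, 0.572 to 0.880 for Sox9 and 0.124 to 0.654 for Sox6, and DESeq2 gave none for Sox2, Sox2ot and Sox6. Among all genes, 121 calls became 37 when libraries were thinned to the smallest total, 14 with DESeq2 (42.9% of them higher), and 3 to 108 with 1 library left out, with 3 without the first and 35 without the second library labelled Tut1 knockout and 75 without WT replicate 1. With the replicate number as a block, 76 genes were called and the log2 fold changes were -0.56 for Sox2, 0.25 for Sox2ot, 0.07 for Sox5 and -0.30 for Sox9. The deviations of same-numbered libraries had a correlation of -0.06 across genes. At such low counts, this value cannot show whether same-numbered libraries were paired. Alternatives planned for the 6 Sox genes not analysed and for the ratio of SoxC to SoxB1 were not run. At 10 to 22 counts of Sox2 per library, depth limits what could be detected.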
